A study of Mus musculus with 2 samples.

Results

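Sfmbt2 and the microRNA genes inside its body were examined for H3K9me3, a histone H3 that carries 3 methyl groups on lysine 9. The members were all RefSeq genes whose symbol starts with Mir and that lie within the Sfmbt2 gene on chromosome 2 of mm10, together with Sfmbt2. This gave 71 Mir genes and 72 members in all, of 49943 RefSeq genes on chromosomes 1 to 19, X and Y. H3K9me3 was mapped by ChIP-seq, in which fragments bound to the modified histone are pulled down and sequenced, in 2 biological replicates of the cell line E14TG2a.4. This is a male embryonic stem cell line of mouse strain 129/Ola, cultured without any treatment that the labels name. The replicates form 1 group from separate biosamples of that line, there is no second condition, and no control library was analysed here, so no test was made. Each list holds only peaks that passed the authors' threshold, and read depth is unknown.

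Sfmbt2 encodes a Polycomb group protein with MBT domains, a class of proteins that bind methylated histone tails. In the mouse it is an imprinted gene, expressed from the paternal copy in extraembryonic tissue, and it is needed for the trophoblast. One of its introns carries a large tandem cluster of microRNA hairpins. A microRNA hairpin is cut from its transcript by Drosha and then by Dicer, and the mature strand guides an Argonaute protein to target RNAs through its seed. H3K9me3 is a mark of silent chromatin, found on repeats and on imprinting control regions.

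No Mir gene inside Sfmbt2 lay under an H3K9me3 peak in any list, and the whole stretch of hairpins was free of peaks in both replicates. Sfmbt2 itself, a protein-coding gene on the plus strand, lies at chr2:10370440-10595253 in mm10, 224.8 kb. The hairpins fill its middle, from Mir466m at 10466663 to Mir669h at 10518279, a span of 51.6 kb or 23.0% of the gene. The first hairpin lies 96.2 kb after the start of the gene and the last 77.0 kb before its end. The 71 belong to 4 families by symbol, with 29 Mir669, 23 Mir466, 14 Mir467 and 5 Mir297 genes. A further miRNA gene inside Sfmbt2, Gm25285, has another kind of symbol and was not counted. In the mm9 annotation GENCODE M1, all 119 miRNA genes inside Sfmbt2 lie clear of its exons. The Mir genes there sit in 1 intron of 62.5 kb, counted as intron 9, 10 or 11 in the 4 transcripts that span it.

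The families repeat in a regular order where the Mir467 hairpins lie, from Mir467c to Mir467d, and not in the hairpins before and after that stretch. The distance from the start of each Mir467 hairpin to the start of the next had a median of 2.45 kb over 13 steps, and 11 of the steps lay between 2.4 and 2.5 kb. The exceptions were the step from Mir467a-9 to Mir467a-10, 4.88 kb, and that from Mir467e to Mir467d, 1.91 kb. The first of these depends on the annotation. In mm9 a Mir467a hairpin is annotated between Mir669a-10 and Mir669a-11, where RefSeq lists none in mm10. Of the 14 Mir467 hairpins, 11 were followed by a Mir466 and then a Mir669 hairpin, as in Mir467a-5, Mir466b-5 and Mir669p-1. Mir467a-6 was not among the 11, but Gm25285, left out by its symbol, lies between it and Mir669a-8.

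The RefSeq table used here matched 0 of the 71 members to a sequence. Of 10 genes outside Sfmbt2 with the same families by symbol, 8 had a mature sequence (RefSeq, GRCm38.p6). No Mir297 gene is among the 8, and Mir669n is the only Mir669 gene. Whether the members resemble them was not tested. The sequences are printed 5′ to 3′ with the seed, bases 2 to 8, in capitals.
mmu-miR-466q: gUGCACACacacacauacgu
mmu-miR-466k: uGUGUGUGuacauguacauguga
mmu-miR-669n: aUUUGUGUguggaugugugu
mmu-miR-467g: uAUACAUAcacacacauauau
mmu-miR-467h: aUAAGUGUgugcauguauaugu
mmu-miR-466j: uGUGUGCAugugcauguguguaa
mmu-miR-467f: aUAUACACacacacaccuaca
mmu-miR-466i-3p: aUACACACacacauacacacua

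All 8 had different seeds. Runs of at least 4 UG, GU, AC or CA pairs stood in 6 of the 8, on the strand of the microRNA itself, against 13 of all 1738 mature mouse microRNAs in the table, 0.748%. Mir466q on chromosome 3 and Mir467f on chromosome 11 had the longest runs, 6 pairs each. No member was matched to a sequence, so these shares do not describe the members.

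Of the 71 Mir genes inside Sfmbt2, 0 were overlapped by a replicated peak by at least 1 bp. The count was 0 in replicate 1, 0 in replicate 2 and 0 in the authors' pooled list. Among all 1180 Mir genes of miRNA type, 2.46% were overlapped by a replicated peak, 2.37% in replicate 1, 2.8% in replicate 2 and 3.47% in the pooled list. Peaks at Mir genes were thus rare over the whole set, and the 71 lie next to each other, so the count of 0 is close to this background. With 1 kb added either side of each hairpin the count inside Sfmbt2 was still 0, against 6.69% over all Mir genes.

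The span of 51.6 kb as a whole was also without a peak, with 0% of its bases covered in replicate 1, 0% in replicate 2 and 0% in the replicated list. Of windows of the same length laid end to end, 64.6% held a replicated peak on chromosomes 1 to 19, X and Y, and 66.4% on chromosome 2. The share with none was 35.4% over these chromosomes. A peak-free stretch of this length was therefore common in these data. Around the hairpins the peak-free stretch reached 288.2 kb in replicate 1, 78.0 kb in replicate 2 and 109.7 kb in the replicated list. Replicate 1 thus had no peak in the gene before the hairpins, while replicate 2 had 2 there.

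**Figure D1:**
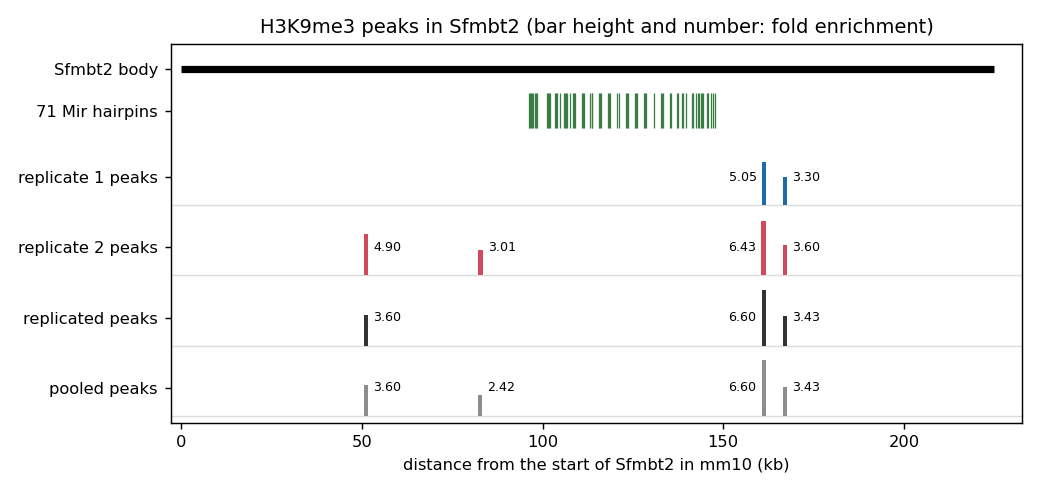
Map of Sfmbt2 in mm10, with the distance from the gene's start in kb on the horizontal axis, the 71 hairpins as green ticks and 1 row of H3K9me3 peaks for each list. Bar heights and numbers give fold enrichment. No list has a peak among the hairpins. Replicate 1 has peaks after them only, and the other lists on both sides.

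Every member hairpin lay at least 13.1 kb from a replicated peak. Mir669h, the last hairpin, was the nearest, at 13.1 kb from a peak, and Mir466b-8 the farthest, at 54.7 kb. The median of the 71 was 42.2 kb, against 20.4 kb over the 1109 other Mir genes, whose distances ran from 0 to 263.4 kb. In replicate 1 the members' distances ran from 13.2 to 64.8 kb with a median of 42.3 kb, and in replicate 2 from 13.1 to 38.2 kb with a median of 23.5 kb. Neighbouring hairpins share the same nearest peak, so these distances are not independent.

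The 10 genes of the same families elsewhere in the genome were also without a peak. The overlapped number was 0 of 10 in the replicated list, in each replicate and in the pooled list. Their distance to a replicated peak ran from 3.86 kb at Mir467g on chromosome 5 to 120.1 kb at Mir467f on chromosome 11, with a median of 10.7 kb.

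**Figure D2:**
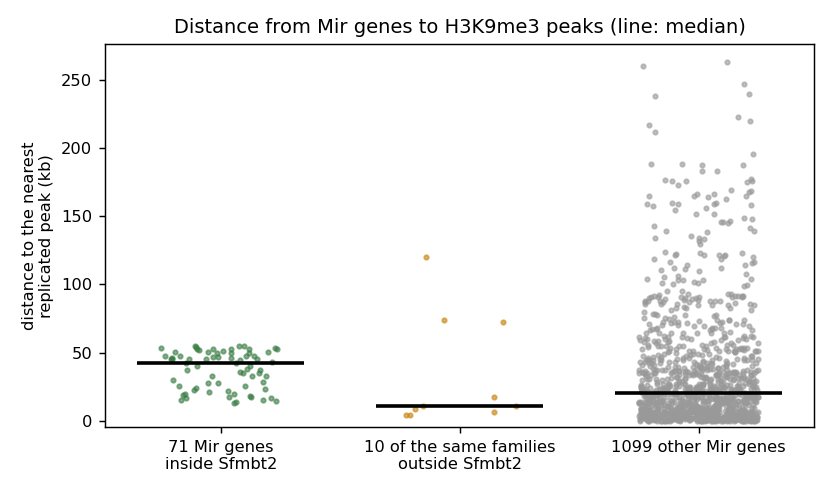
Distance in kb from each Mir gene to the nearest replicated H3K9me3 peak, with 1 point a gene and a line at the median. The 71 genes inside Sfmbt2 lie between 13.1 and 54.7 kb, within the range of the other Mir genes, which are split into the same families and the rest.

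Outside the hairpins, Sfmbt2 carried 3 replicated peaks, 1 before the cluster and 2 after it. The strongest lay at chr2:10531398-10531881 in mm10, 13.1 kb after the last hairpin. Its fold enrichment was 5.05 in replicate 1, 6.43 in replicate 2 and 6.60 in the replicated list. The replicates' own values were at or above 83.8% of the peaks of replicate 1 and 83.6% of those of replicate 2. Both replicates therefore listed it at about the same place within their own list.

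The second peak after the cluster, at chr2:10537300-10537803, had a fold enrichment of 3.30 in replicate 1, 3.60 in replicate 2 and 3.43 in the replicated list. It lay below the middle of each replicate's list, at or above 43.2% of the peaks of replicate 1 and 45.6% of those of replicate 2. The peak before the cluster, at chr2:10421215-10421722, had a fold enrichment of 4.90 in replicate 2 and 3.60 in the replicated list, and no peak of replicate 1 overlapped it. A peak at chr2:10453159-10453378, with a fold enrichment of 3.01, stood in replicate 2 and not in replicate 1 or the replicated list. A pooled peak at chr2:10452899-10453299, with a fold enrichment of 2.42, overlapped it. In the replicates' own lists, the peaks before the cluster thus stood in replicate 2 only, and those after it in both. Fold enrichments are the authors' own values per peak.

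Peaks covered 0.311% of the Sfmbt2 body in replicate 1 and 0.744% in replicate 2, a mean of 0.528% ± 0.306 (SD, n = 2), and 0.665% in the replicated list. The median over 2428 other protein-coding genes of at least 100 kb was 1.56% in the replicated list, with quartiles of 0.529% and 3.23%. Sfmbt2 lay above 28.7% of these genes in the replicated list, 20.6% in replicate 1 and 28.0% in replicate 2. It thus stood in the lower part of the middle range in the replicated list and in replicate 2, and below the lower quartile in replicate 1. Of all 2429 such genes 86.6% had at least 1 replicated peak. Sfmbt2 had 1.33 peaks per 100 kb, against a median of 2.37 in the other long genes.

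**Figure D3:**
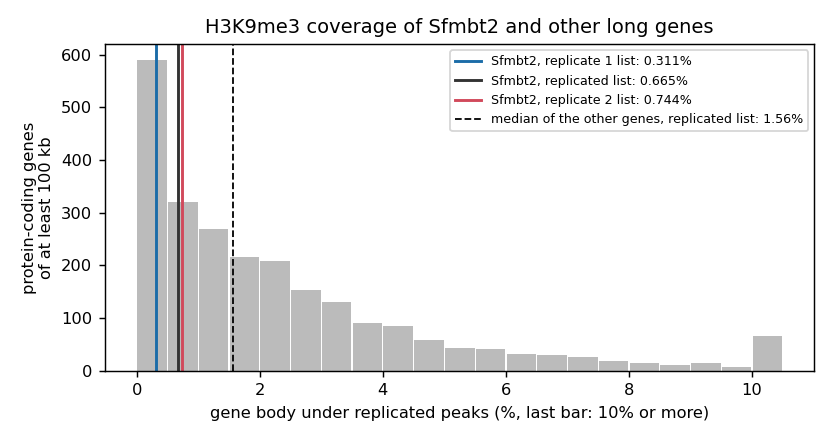
Percent of the gene body under replicated H3K9me3 peaks, for 2428 other protein-coding genes of at least 100 kb (bars, number of genes, replicated list) and for Sfmbt2 in each list (coloured lines). Sfmbt2 lies below the 1.56% median of the other genes in all 3 lists shown.

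No peak lay near the starts of Sfmbt2. RefSeq gives 2 promoter windows, each from 250 bases before to 50 after a start. The first had its nearest peak 126.9 kb away in replicate 1, 50.7 kb in replicate 2 and 50.7 kb in the replicated list. The second, at chr2:10372186-10372485 in mm10, had its nearest peak 128.9 kb away in replicate 1, 48.7 kb in replicate 2 and 48.7 kb in the replicated list. Of all 32851 RefSeq promoter windows 3.05% were overlapped by a replicated peak. The second window is shown because it is rich in CpG, the letters CG, which are in capitals on the plus strand (RefSeq, GRCm38.p6).
Sfmbt2 promoter: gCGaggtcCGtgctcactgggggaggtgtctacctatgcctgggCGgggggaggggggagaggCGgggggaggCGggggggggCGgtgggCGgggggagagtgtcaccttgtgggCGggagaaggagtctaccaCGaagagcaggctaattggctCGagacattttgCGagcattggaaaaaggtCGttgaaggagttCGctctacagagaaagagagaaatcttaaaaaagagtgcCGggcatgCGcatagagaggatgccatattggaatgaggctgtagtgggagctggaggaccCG

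It holds 16 CpG, more than 67.0% of all promoter windows, of which 94.6% hold at least 1 and whose median is 7. The first window holds 9.

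Much of the cluster's sequence occurs more than once in the genome. In the mm9 genome, 45.6% of the 36-mers in the miRNA span occurred once on both strands together, against 91.9% in the rest of Sfmbt2 and 87.2% at points every 5 kb along chromosome 2. With 50-mers the shares were 52.3%, 93.4% and 90.2%. Between the first and the last Mir467a hairpin 16.3% of 36-mers occurred once, with a median of 4 copies. The sources used here give neither the read length nor how reads with several matches were handled. The part of repeated sequence in the lack of peaks was not tested.

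The hairpins differed among themselves in this respect. Of 68 Mir genes annotated inside Sfmbt2 in mm9, 30 had no 36-mer that occurs once, among them those named Mir467a-5, Mir466b-5 and Mir669a-5 there. Some names mark different hairpins in mm9 and mm10. Mir467a-5 comes just before Mir466b-6 in mm9 and just before Mir466b-5 in mm10. In contrast Mir669b, Mir669e, Mir466, Mir466g, Mir466h and Mir466l consisted of such 36-mers throughout. Of 50 whole windows of 1 kb in the span, 13 had at least 80% of 36-mers found once and 14 had under 10%, the last all between 113 and 127 kb from the gene's start. No region of any mm9 list lay in the span.

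**Figure D4:**
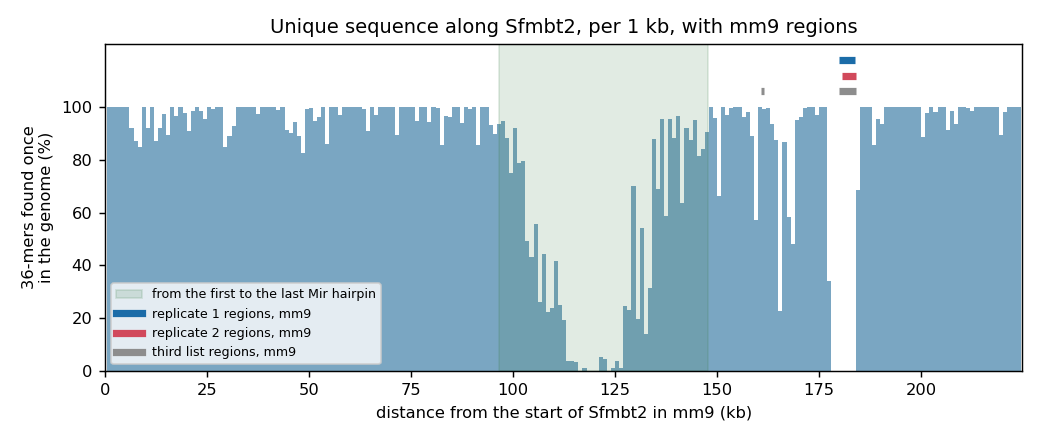
Percent of 36-mers that occur once in the mm9 genome, per 1 kb along Sfmbt2, against the distance from the gene's start in kb. Coloured bars are the regions of each mm9 list and the green band runs from the first to the last Mir hairpin. Unique sequence is scarce between 113 and 127 kb inside the band, and between 178 and 184 kb, where the regions of both replicates lie.

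The mm9 lists, whose regions are wider, left the hairpins bare as well but marked another place in the gene. None of the 68 Mir genes or of the 119 miRNA genes in mm9 was overlapped in replicate 1, replicate 2 or the third list. Each replicate listed 1 region in Sfmbt2. It ran from 10472001 to 10475800 in replicate 1, with a fold enrichment of 2.12, and from 10472801 to 10476200 in replicate 2, with 3.01. The shared part, 3000 bp long, lies 32.9 kb after the last hairpin and overlaps no exon. None of its 36-mers occurs once, and their median copy number is 3101. On chromosome 2, 47.0% of 36-mers in the regions shared by both replicates occur once.

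The strongest mm10 peak had a counterpart in the third mm9 list only. Mir669h served as a mark in both builds, since it has the same length in each and lies 77.0 kb before the end of Sfmbt2 in each. The mm10 replicated peak began 13.1 kb after Mir669h. The region at chr2:10453001-10453600 in the third mm9 list, with a fold enrichment of 4.17, also began 13.1 kb after it. No region of replicate 1 or replicate 2 in mm9 lay there. No mm10 list had a peak 32.9 kb after Mir669h, where both mm9 replicates had their region. Of the 36-mers in the 600 bp of the third list's region, 98.8% occur once. Its middle 300 bases, chr2:10453151-10453450 in mm9 on the plus strand, are shown because this place matches that of the highest mm10 fold enrichment in the gene, with CpG in capitals.
Sfmbt2 region: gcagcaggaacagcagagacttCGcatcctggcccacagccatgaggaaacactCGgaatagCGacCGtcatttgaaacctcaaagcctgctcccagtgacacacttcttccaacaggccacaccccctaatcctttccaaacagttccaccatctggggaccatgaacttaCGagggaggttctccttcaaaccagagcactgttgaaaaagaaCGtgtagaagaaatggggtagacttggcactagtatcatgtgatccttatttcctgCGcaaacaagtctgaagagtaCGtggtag

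The 600 bp hold 9 CpG, or 15 per kb, against 11.6 per kb over the Sfmbt2 body, 9.19 per kb over the miRNA span and 8.53 per kb over chromosome 2.

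Other genes that carry several microRNAs differed widely. Besides Sfmbt2, 9 genes held at least 5 Mir genes, and 4 of them had a Mir gene under a replicated peak. Over all 1180 Mir genes 2.46% were under one. Of the 27 other genes with at least 3 Mir genes, the same 4 had one. The 9 are not all separate loci. D7Ertd143e and Nlrp12, both among the 4, overlap and share their Mir genes, and Gm51018 lies inside Larp7 with the same 5. The body of these 9 was covered over a median of 1.32%, with a range from 0% to 19.6%, and 4 of the 9 lay below the 0.665% of Sfmbt2. The order turned in replicate 1, where Sfmbt2 had 0.311%, above the median of 0.0775% and above 5 of the 9. In replicate 2 Sfmbt2 had 0.744%, below the median of 1.88% and above 4 of the 9. In Rtl1, an imprinted retrotransposon-derived gene on chromosome 12, 8 of 15 Mir genes were under a replicated peak, 10 in replicate 1 and 7 in replicate 2, and 19.6% of the body was covered. In Mirg, a noncoding RNA gene of the same chromosome, 0 of 10 were under one, with 0% of the body covered in replicate 1 and 3.52% in replicate 2. D7Ertd143e and the overlapping Nlrp12 on chromosome 7 share 7 Mir genes, of which 1, Mir291a, was under a replicated peak and 2 under a peak of replicate 2. A230057D06Rik on chromosome 7 also had 1 of 7.

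**Figure D5:**
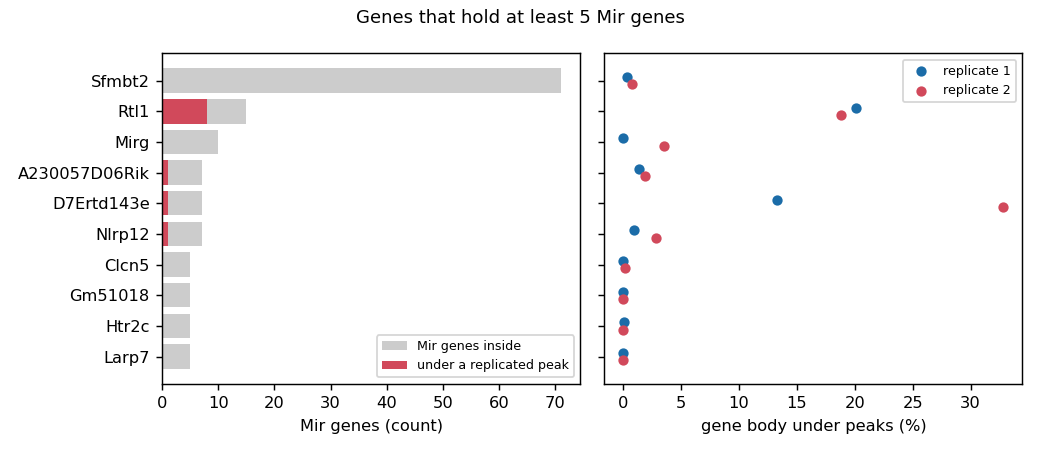
Genes that hold at least 5 Mir genes, with the number of Mir genes inside and under a replicated peak on the left and the percent of the body under peaks in each replicate on the right. Sfmbt2 has the most Mir genes and 0 under a peak, and Rtl1 has 8 of 15.

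Genes beside imprinting control regions carried the mark in the same lists. All 10 of a list of such genes had a replicated peak in the body, against 24.5% of all RefSeq genes. Among protein-coding genes of at least 100 kb the share was 86.6%. The list was chosen with earlier results of these data known, so its count only describes these genes. The median share of the body covered was 23.9% in the 10 and 0% over all genes. Nnat was covered over 100%, H19 over 67.2% and Mest over 53.4%. Sfmbt2, with 0.665%, was below each of the 10, of which Snrpn had the lowest value, 1.66%. Covered percent also depends on gene length. Nnat, 2.45 kb long, and H19, 2.62 kb, had 1 replicated peak each, against 3 in the 224.8 kb of Sfmbt2. Snrpn, at 467.7 kb, is the longest of the 10. The other genes of at least 100 kb were Airn, 118.6 kb with 10.9% covered, and Grb10, 106.9 kb with 13.7%. The part of length in these differences was not tested. Of 5 other genes imprinted through maternal H3K27me3 in the mouse, Smoc1 had a replicated peak, with 2.14% of its body covered, and Gab1, Jade1, Slc38a4 and Xist had none. Replicate 1 alone listed a peak in Gab1, over 0.262% of its body.

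Some relatives of Sfmbt2 had peaks, and its partner Yy1 had none. The list held 12 genes, for MBT domain and Scm-like proteins, the partner Yy1 and its relatives. Of these 7 had a replicated peak in the body, with a median coverage of 0.553%. Of all protein-coding genes 30.8% had one, and long genes had one more often, as given above. L3mbtl4 had 5.28% covered, Scmh1 3.25% and L3mbtl3 2.59%. Sfmbt1, the closest relative of Sfmbt2, had 0.729%. The 5 with no replicated peak were Yy1, Yy2, Zfp42, L3mbtl2 and Mbtd1. Of 15 genes for microRNA processing and Argonaute function 7 had a replicated peak, with a median coverage of 0%. Prkra, a Dicer partner, had 6.68% covered, Dicer1 3.24% and Tnrc6b 2.89%, while Drosha and Dgcr8 had none. The other microRNA groups differed. Of the 8 matched genes of the Mir290 cluster, which embryonic stem cells express, 1 was overlapped by a replicated peak and 4 by a peak of replicate 2, against 2.46% and 2.8% of all Mir genes. A replicated peak overlapped 0 of 5 in the Mir302 cluster and 0 of 6 in the Mir17 cluster. The genes of each cluster lie close together, and Mir290b lies inside Mir290a. Their overlaps are therefore not independent, and the 4 in replicate 2 come from 1 locus.

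The nearest genes on either side, Gm39758 and Gm13261 before Sfmbt2 and Gm31729 and Gm18547 after it, had no peak in either replicate or in the replicated list. Marker genes cannot show the cell type from a silencing mark, so they describe the mark only, and 30.8% of all protein-coding genes had a replicated peak. Of 7 pluripotency genes 1 had a replicated peak in the body, Esrrb, with 5.20% covered. Among 7 genes of fibroblasts 3 had one, with Col1a1 at 9.85%, Pdgfrb at 6.19% and Lum at 3.39%. Of 7 trophoblast genes 1 had one, Ascl2, with 36.8% covered.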

How the data were processed

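Peak lists from 2 replicates were analysed. The authors' file lists derive the pooled mm10 list from the alignments of both replicates. They derive the replicated list from that list and those of each sample. The authors deposited for each mm10 peak a fold enrichment, a linear ratio, with −log10 p and −log10 q. The mm9 lists hold a linear p-value and a linear q-value as deposited by the authors, beside the fold enrichment. The sources used here name no peak caller or aligner, and do not say what the fold enrichment is relative to. The third mm9 list is not stated to pool the replicates.

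Gene positions were RefSeq GRCm38.p6 for mm10 and GENCODE M1 for mm9, and no coordinates were converted between builds. A gene counted as overlapped from 1 bp. Covered percent is the share of bases under merged peaks. Scaffolds were left out. Uniqueness is the share of 36-mers or 50-mers found once in the mm9 genome, both strands, which stands in for mm10, whose genome was not used here. The overlap and k-mer functions were tested on simulated data (Python 3.11.15, numpy 2.4.6, pandas 2.3.3, numba 0.67.0).

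The members and gene lists were chosen with earlier results of these data known. Named genes were Sfmbt2, its Mir genes, 2 genes per side, the 5 other hosts with the most Mir genes, and up to 3 most covered genes per list. Further genes, such as Snrpn, Sfmbt1 and those without a peak, were named after their values were seen. With 1 group of 2 replicates no test was made, and spread between replicates includes technical variation.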

Additional observations from a re-analysis of the deposited data

How the results depend on the processing

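The 0 of 71 Mir genes under a peak and the 0% of the miRNA span covered stayed at 0 in all 10 and 8 alternatives run for them. Only the alternatives that changed the list or the build could have given another value. The thresholds and the stricter overlap rule can only remove overlaps. Merging peaks within 1 kb or adding 1 kb to a hairpin could not reach one, since the nearest replicated peak lay 13.1 kb away. The 0 of 10 same-family genes outside Sfmbt2 also stayed at 0 in all 6 mm10 alternatives. Those with a threshold or merging were added after seeing the data and could not have changed the count. Thresholds only remove peaks, and the nearest replicated peak lay 3.86 kb from any of these genes. The covered percent of Sfmbt2, 0.665% in the replicated list, was 0.311% without replicate 2, 0.744% without replicate 1 and 0.844% in the pooled list. Outside the hairpins, 0.864% in the replicated list became 0.404%, 0.965% and 1.1% in the same order. With a fold enrichment of at least 4 the body and outside shares were 0.215% and 0.279%. That filter removes weaker peaks and left 1 of 3. With mm9 regions covered in both replicates the shares were 1.33% and 1.73%, with 1 region. With the third mm9 list, added after seeing the data, they were 2.14% and 2.77%. The median coverage of other hosts, 1.32%, was 0% with a fold enrichment of at least 4 and 0% for genes with at least 3 Mir genes. It was 0.0775% without replicate 2, 1.88% without replicate 1 and 1.97% in the pooled list. The cause of the differences between builds was not tested. Among gene lists, the 1 of 5 H3K27me3-imprinted genes became 2 without replicate 2, and the 1 of 8 Mir290 cluster genes became 4 without replicate 1. The 1 of 7 pluripotency and 1 of 7 trophoblast genes each became 2 without replicate 1. Each of these list counts was 2 in the pooled list. Unknown depth limits what the absence of a peak can show. No paired analysis was possible because there is 1 group only.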
